A study of Mus musculus with 6 samples.

Results

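Prtg, Greb1, Shtn1, Acpp and Cd2ap are 5 protein-coding genes whose transcripts were among those raised most stably, relative to the spread between samples, in mouse forebrain tissue of embryos in which Cre deletes Dicer. They were 5 of 55471 gene identifiers in the count tables and 5 of 30928 genes with a count in at least 1 sample. The members were selected on the comparison of the genotypes itself. Their levels and fold changes are therefore given as a description, with no test, and nothing is supported with them.

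The rostral end of the telencephalic primordium was sequenced (RNA-seq) from embryos at E11.5, with 3 control and 3 Rx-Dicer samples. Both genotypes carried floxed Dicer alleles (Dicer F/F, the labels' WT or wt for the controls), and the Rx-Dicer embryos (RxCre-Dicer F/F) also carried Cre. The Rx3-Cre line came from a CD1 background and the floxed line from C57BL/6. As described by the study, Rx drives Cre in the early forebrain, with recombination strong at the rostral and ventral end and lower in the neocortical primordium, so a sample can hold cells that kept Dicer. No label tells if 1 embryo or several went into a library, so the spread between samples may be partly technical. In bulk tissue, fewer cells of a type and less RNA per cell cannot be told apart.

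Dicer is the RNase that cuts hairpin precursors into mature microRNAs (miRNAs). A miRNA guides an Argonaute complex to matching sites, mostly in the 3′ UTR of mRNAs, through its seed, the bases 2 to 8 at its 5′ end, and lowers the stability and translation of those mRNAs. In the embryonic brain, let-7 miRNAs are known to rise as progenitors mature, and miR-9 is known as an abundant miRNA of the neural tube. The 5 genes do not belong to 1 pathway. Prtg (protogenin) is a transmembrane receptor of the immunoglobulin superfamily, related to DCC and neogenin, known from the early neural tube. Greb1 is a cofactor and target gene of the oestrogen receptor. Shtn1 (shootin-1) couples actin flow in the growth cone to the adhesion molecule L1CAM and acts in neuronal polarity. Acpp is the prostatic acid phosphatase, which in its transmembrane form also removes phosphate from extracellular AMP. Cd2ap is an adaptor with SH3 domains that links membrane receptors to actin and is known from the slit diaphragm of the kidney.

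The 3′ UTRs of the 5 genes were searched for matches to the seeds of 11 miRNAs known from embryonic brain, because the rule that chose the genes did not use sequence. Mature sequences were taken from RefSeq, in which a twelfth miRNA of the list, miR-124-3p, was not found. The 5 miRNAs with a match are shown because their seeds, in capitals, define the sites described next. No 2 of them share a seed.
let-7a-5p: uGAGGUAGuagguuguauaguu
miR-9-5p: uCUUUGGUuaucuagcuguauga
miR-125b-5p: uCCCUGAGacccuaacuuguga
miR-181a-5p: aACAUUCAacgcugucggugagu
miR-16-5p: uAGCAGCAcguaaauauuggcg

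A site was taken as the 7 bases complementary to the seed followed by A, read on the transcript strand of the longest annotated 3′ UTR of each gene. The words searched were CTACCTCA (let-7a-5p), ACCAAAGA (miR-9-5p), CTCAGGGA (miR-125b-5p), TACGGGTA (miR-99a-5p), GCACTTTA (miR-17-5p), TTTGCACA (miR-19b-3p), GTGCAATA (miR-92a-3p), TTGCACTA (miR-130a-3p), TGAATGTA (miR-181a-5p), TACTTGAA (miR-26a-5p) and TGCTGCTA (miR-16-5p). The 12 matches found in the 5 genes are listed with the bases around them, in windows of 30 bases on GRCm38, because they are the positions at which these mRNAs could pair with the listed miRNAs. Capitals mark the site. None of the matches overlapped another.
Prtg, let-7a-5p, chr9:72912558-72912587, plus strand: ccctctgctgaatagCTACCTCAgtttgct
Prtg, miR-9-5p, chr9:72914397-72914426, plus strand: tctgtcaattctgttACCAAAGAattttca
Prtg, miR-9-5p, chr9:72915018-72915047, plus strand: catcggtattttcatACCAAAGAccattaa
Prtg, miR-9-5p, chr9:72915235-72915264, plus strand: aaaaagaaattaaaaACCAAAGAtatttaa
Prtg, miR-125b-5p, chr9:72912303-72912332, plus strand: acagccacgCTCAGGGAttcacaacaagca
Prtg, miR-125b-5p, chr9:72914034-72914063, plus strand: ttgttctttcctgtaCTCAGGGActttttt
Prtg, miR-181a-5p, chr9:72917027-72917056, plus strand: tgtttgccttgatttTGAATGTAtttttaa
Greb1, miR-9-5p, chr12:16672154-16672183, minus strand: aggcaggactgaaaaACCAAAGAgcacatg
Greb1, miR-9-5p, chr12:16671587-16671616, minus strand: aaaaaagaaagaaaaACCAAAGAgatccag
Shtn1, miR-9-5p, chr19:58975094-58975123, minus strand: acacacgaaccccaaACCAAAGAccaggct
Cd2ap, miR-181a-5p, chr17:42793598-42793627, minus strand: ttgccaaattattagTGAATGTAtagttca
Cd2ap, miR-16-5p, chr17:42793179-42793208, minus strand: tcatctttcaaacgtTGCTGCTAttaatat

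Prtg carried 7 of the 12 matches in a 3′ UTR of 4989 bases, longer than 96.2% of the 21010 annotated 3′ UTRs. The miR-9-5p word was found in 3 of the 5 genes, with 3 matches in Prtg, 2 in Greb1 and 1 in Shtn1. Over all 3′ UTRs 4.12% held it, and among 3′ UTRs within 20% of the length of Prtg, Greb1 and Shtn1 the share was 13.4%, 5.11% and 5.54%. The 8-base let-7a-5p word was found in Prtg alone of the 5, 271 bases after the stop codon. It was held by 3.06% of all 3′ UTRs and 9.07% of those of similar length. The word for miR-125b-5p, also found in Prtg alone, was held by 4.598% of all 3′ UTRs and 12.1% of those of similar length. Cd2ap, with a 3′ UTR of 3377 bases, had 1 match each to miR-181a-5p and miR-16-5p, held by 5.28% and 4.05% of all 3′ UTRs and by 11.6% and 8.58% of those of similar length.

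Acpp had no 8-base match to any of the 11 miRNAs in 3160 bases of 3′ UTR, and no 7-base match without the final A. That says only that these words are not in this window. With the 7-base words miR-9-5p still matched 3 of the 5 genes, at 3 positions in Prtg, 4 in Greb1 and 1 in Shtn1. Over all 3′ UTRs 12.2% held the 7-base word, and among those of similar length to Prtg, Greb1 and Shtn1 36.4%, 15.7% and 16.0%. The 7-base let-7a-5p word was found at 2 positions in Prtg and 1 in Greb1. It was held by 9.02% of all 3′ UTRs, and by 25.5% and 11.7% of those of similar length to Prtg and Greb1. Shtn1 had 1 7-base match each to miR-17-5p, miR-19b-3p and miR-26a-5p, Cd2ap 1 to miR-92a-3p, and Prtg 1 to miR-16-5p. The words for miR-99a-5p, miR-17-5p, miR-19b-3p, miR-92a-3p, miR-130a-3p and miR-26a-5p were absent from all 5 in their 8-base form. Levels of miRNAs were not analysed here, and a match is a description of the sequence.

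The depth of the libraries was similar between the genotypes. Control libraries held 34471501 to 44614586 reads on genes and Rx-Dicer libraries 40006887 to 48373468. Dicer1 itself (ENSMUSG00000041415) had 6355, 7070 and 6270.4 normalised counts in the controls and 4777, 7002 and 4644 in the Rx-Dicer samples, counts divided by the size factor of each library. The fitted log2 difference was -0.26 ± 0.17 (SE; DESeq2 adjusted p 0.567). The second Rx-Dicer sample lay within the range of the controls. A count over the whole gene takes in exons outside the floxed part, so it does not check the genotype, and the values of the 5 genes are given below with and without that sample.

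Prtg (ENSMUSG00000036030, GRCm38 chromosome 9, 72806874 to 72917291, plus strand) had 833, 641 and 463 normalised counts in the control samples and 3606, 3122 and 3709 in the Rx-Dicer samples. Every Rx-Dicer value lay above every control value, and the lowest Rx-Dicer value was 3.75 times the highest control value. The means were 646 ± 185 and 3479 ± 314 (SD, n = 3 each), which gave 2.43 ± 0.19 (SE) as log2 fold change. The spread was wider among controls, where the highest value was 1.80 times the lowest, than among Rx-Dicer samples, where it was 1.19 times the lowest. Without the second Rx-Dicer sample the log2 fold change was 2.51.

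Greb1 (ENSMUSG00000036523, chromosome 12, 16670615 to 16800886, minus strand) had 447, 493 and 501 normalised counts in controls and 1431, 1466 and 1263 in Rx-Dicer samples. The groups did not overlap and both were narrow, with coefficients of variation of 6.04% and 7.81%. The means were 480.2 ± 29.0 and 1387 ± 108 (SD, n = 3 each), and the log2 fold change was 1.53 ± 0.14 (SE), or 1.49 without the second Rx-Dicer sample.

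Shtn1 (ENSMUSG00000041362, chromosome 19, 58973356 to 59076100, minus strand) had 452, 439 and 559 normalised counts in controls and 1512, 1095 and 1542 in Rx-Dicer samples. The second Rx-Dicer sample was the lowest of its group and still 1.960 times the highest control. The means were 483 ± 65.8 and 1383 ± 249.7 (SD, n = 3 each), with a log2 fold change of 1.52 ± 0.18 (SE). Leaving out that sample gave 1.66.

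Acpp (ENSMUSG00000032561, chromosome 9, 104288251 to 104337748, minus strand) was the least abundant of the 5. The controls gave 13, 9 and 15 reads and the Rx-Dicer samples 127, 104 and 142, or 15.9, 9.17 and 14.1 against 109, 106 and 135 normalised counts. The phosphatase gene was therefore close to the limit of detection in controls and clearly counted in every Rx-Dicer library. Its log2 fold change was 3.17 ± 0.39 (SE), the largest of the 5 and also the one with the largest error, and it was 3.24 without the second Rx-Dicer sample. Means were 13.05 ± 3.48 and 117 ± 16.0 normalised counts (SD, n = 3 each).

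Cd2ap (ENSMUSG00000061665, chromosome 17, 42792951 to 42876665, minus strand) had 1253, 1139 and 1228 normalised counts in controls and 2094, 2231 and 2153 in Rx-Dicer samples. It had the smallest change of the 5 and the tightest groups, with coefficients of variation of 4.99% and 3.18%. The means were 1207 ± 60.2 and 2159.6 ± 68.7 (SD, n = 3 each), and the log2 fold change was 0.84 ± 0.12 (SE), or 0.82 without the second Rx-Dicer sample.

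**Figure D1:**
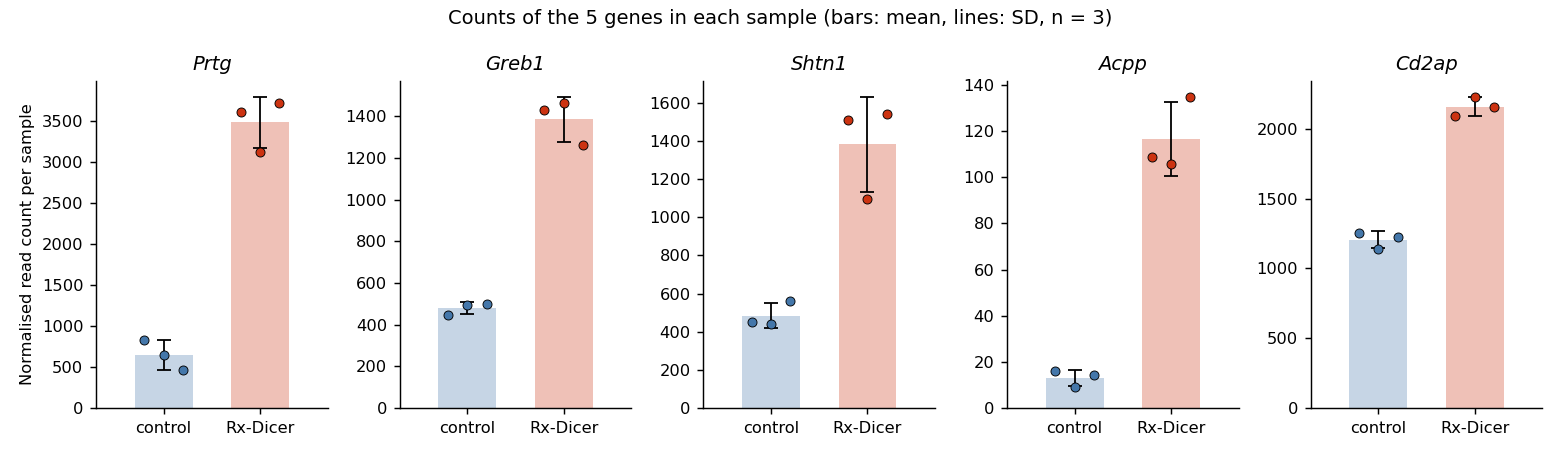
Normalised read counts (vertical axes, from 0, a scale per gene) of the 5 genes in control and Rx-Dicer samples; points are samples in the order of their replicate number, bars are means and lines are SD (n = 3). In each panel the 3 Rx-Dicer points lie above the 3 control points, from 1.67 times the highest control for Cd2ap to 6.67 times for Acpp.

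DESeq2 called 502 of 17127 genes, 2.93%, at the thresholds on adjusted p and fold change that the study used. Of these 300 were higher in Rx-Dicer samples (1.75% of genes tested) and 202 lower (1.18%). All 5 members were among the higher ones. All 3 Rx-Dicer values exceeded all 3 control values in 8.55% of genes tested, the 5 members included. Because this contrast chose the members, nothing is read from these counts. The distance between the groups ranked differently from the fold change. Only 1 gene had a larger ratio of lowest Rx-Dicer to highest control value than Acpp, 7 had a larger one than Prtg, and 61 than Cd2ap, while by log2 fold change Acpp ranked 15 and Cd2ap 522 among the genes tested.

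**Figure D2:**
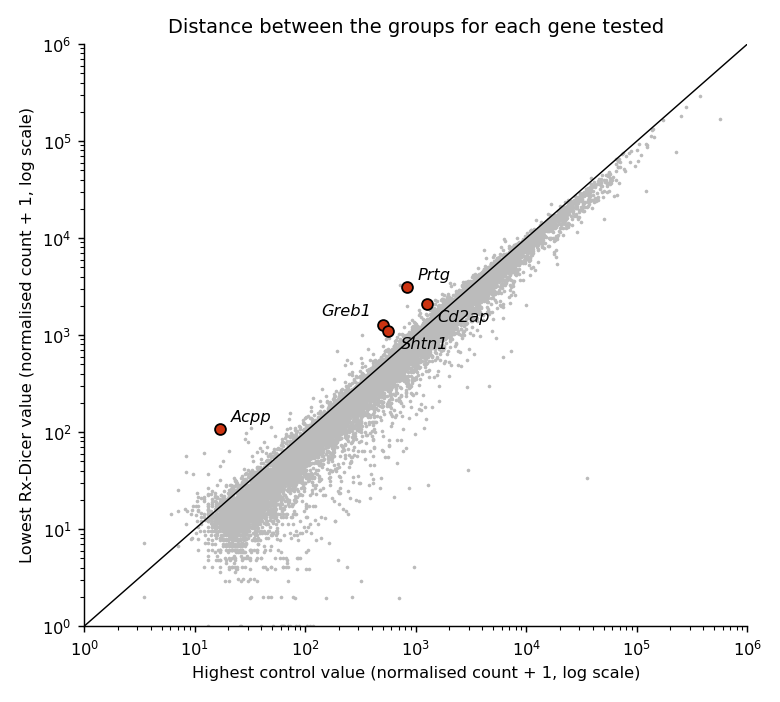
Highest control value against lowest Rx-Dicer value of each tested gene (normalised count + 1, both axes logarithmic); grey points are the 17127 genes tested, red points the 5 described here, and the line marks equal values. All 5 lie above the line, with Acpp farthest from it at a ratio of 6.67 and Cd2ap nearest at 1.67.

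edgeR's quasi-likelihood test, the more cautious of the tools used, called 8 of 17954 genes, 0.0446%, all of them higher in Rx-Dicer samples, and left 2313 genes at an unadjusted p under 0.05. The 5 members were among the 8, which describes how they were chosen and is no test of them. The other 3, Lin28a, Tnrc6a and Bcl2l11, are no members. At the threshold, Shtn1 stood just inside with an edgeR adjusted p of 0.0417 and a log2 fold change of 1.52. Irs2, at 0.0520 and 0.81, and Col25a1, at 0.0520 and -1.72, stood just outside.

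Levels were compared between the genes per length, as RPKM, in which reads are scaled by library total and annotated exon length. In controls Shtn1 (1.85 ± 0.28), Cd2ap (1.79 ± 0.12) and Prtg (1.66 ± 0.48; SD, n = 3 each) did not differ beyond their spread. Greb1 followed at 1.18 ± 0.070, and Acpp was far below at 0.042 ± 0.012. In Rx-Dicer samples the order was Prtg (9.05 ± 0.60), Shtn1 (5.33 ± 0.85), Greb1 (3.46 ± 0.38) and Cd2ap (3.25 ± 0.18), of which the last pair overlapped, with Acpp at 0.379 ± 0.038. Among 14388 protein-coding genes with a mean of at least 10 normalised counts, Prtg moved from above 28.8% of them in controls to above 63.8% in Rx-Dicer samples, and Acpp from above 0.827% to above 12.2%. In controls the share was 24.4% for Greb1, 29.7% for Cd2ap and 30.1% for Shtn1.

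The 5 genes were next set beside the genes most like them across the 6 samples, by the root mean square difference of log2(normalised count + 1) after centring on the control mean, over 17770 genes with a mean of at least 10 normalised counts. Closest to Prtg were Ano3 (0.41) and Onecut2 (0.41), closest to Greb1 were Atp8b1 (0.19) and Pou2f2 (0.20), and closest to Shtn1 were Spon1 (0.13) and Zim1 (0.13). Abcg8 (0.34) and Gm16551 (0.48) were closest to Acpp, and Man2a1 (0.092) and Tchh (0.10) to Cd2ap. None of the pairs is formed by members. The second Rx-Dicer sample set Prtg and Onecut2 apart, since Onecut2 had 554 normalised counts there against 1414 and 1156 in the others of its group. With a pseudocount of 5 in place of 1, Acpp and Prtg each became the gene most like the other (0.36).

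Sequence shared with other genes, which limits what the counting can assign, was short. No stretch of 50 bases in the Prtg or Shtn1 transcripts occurred in transcripts of another gene, and 0.061% did in Greb1 and 0.63% in Acpp. In Cd2ap 2.72% of such stretches were shared, with Gm6475 and Gm7529, and reads from them would have been left uncounted if they aligned to several places. Inside the introns of Prtg and on its strand, the unverified transcripts A730062M13Rik and Gm37234 had 2 to 4 and 1 to 5 reads in controls and 6 to 16 and 2 to 10 in Rx-Dicer samples. An antisense gene that overlaps Greb1 exons, Gm48140, had 0 to 2 and 1 to 5 reads. Reads were counted by strand, so they were kept apart from those of Greb1.

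Relatives and partners of the 5 proteins were examined in the same DESeq2 fit, from lists of 92 genes, of which 82 were tested. The lists were drawn up from general knowledge, with earlier results of these data known. Of the 82, 6 rose in Rx-Dicer samples and none fell, 7.32% called, where 2.93% of all genes were called and 1.75% rose. The median log2 fold change of the 82 was 0.05 and that of all tested genes was -0.00090. At an unadjusted p under 0.05 edgeR found 12 of the 92, beside 2313 of all 17954 genes it tested. Not all of the 92 passed its count filter, so these shares have unlike bases. After adjustment it found none of the 92.

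Prtg belongs to the DCC type of receptors, which bind netrins, RGM proteins and related ligands. Its closest relative of the list by sequence was Igdcc3, with 39.9% identical residues over 775 aligned, followed by Igdcc4 with 36.8%, Neo1 with 30.1% and Dcc with 29.4%. Igdcc3 (ENSMUSG00000032394, chromosome 9, 65141189 to 65185872) was the only one of the 17 genes tested in this list that passed, and it rose. It had 2456, 4162 and 3466 normalised counts in controls and 8201, 7599 and 7617 in Rx-Dicer samples, with no overlap. The means differed by 1.22 ± 0.18 on the log2 scale (SE; DESeq2 adjusted p 5.11e-09). Igdcc3 kept its call in every DESeq2 alternative, including each fit without 1 sample, and its adjusted p in edgeR was 0.0719. Dcc, with the highest mean count of the list over all 6 samples, had 6600 ± 2217 and 6532 ± 1236 (SD, n = 3 each; adjusted p 0.993). The netrin receptor neogenin, Neo1, had a log2 fold change of 0.19 (0.628) and Igdcc4 0.41 (0.114). The median of the list was 0.15.

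The 3′ UTR of Igdcc3, at 538 bases, held 2 let-7a-5p words and no 8-base word of the other 10 miRNAs. Among 3′ UTRs of similar length 1.26% held the let-7a-5p word. The 3′ UTRs of Igdcc4, Neo1 and Dcc were not searched, so nothing is said of the receptor type. Of the other called relatives and partners whose values are reported, Greb1l held 6 matches of 8 bases, 1 of them to let-7a-5p. That word was in 4.61% of 3′ UTRs of similar length to Greb1l. Podxl held 4 matches and Ncoa3 held 1, none to let-7a-5p, and Alpl held 0. The windows of Igdcc3 are shown because it and Prtg both held the let-7a-5p word.
Igdcc3, let-7a-5p, chr9:65185707-65185736, plus strand: tgtgactctcagcacCTACCTCAgccggaa
Igdcc3, let-7a-5p, chr9:65185787-65185816, plus strand: agcccgaaagcactcCTACCTCAagcccct

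In the list for Greb1, steroid receptors and their coregulators, 3 of 14 tested genes rose and none fell, with a median log2 fold change of 0.07. Greb1l, the paralogue of Greb1 with 54.6% identical residues over 1869 aligned, had 97.7, 62.1 and 111 normalised counts in controls and 204, 203 and 182 in Rx-Dicer samples. The groups did not overlap (log2 fold change 1.12 ± 0.27, SE; DESeq2 adjusted p 0.00314), and of the DESeq2 alternatives the call was lost with the second sequencing file alone (0.0671). Ncoa3, a coactivator of nuclear receptors, had 1366, 1787 and 1753 normalised counts against 2321, 2194 and 2253 (0.46 ± 0.14; DESeq2 adjusted p 0.0398). This call sat at the threshold. Without the second Rx-Dicer sample the adjusted p was 0.0509. Leaving out the first or the third Rx-Dicer sample gave 0.1001 and 0.1204, and the third control 0.0577. The oestrogen receptor genes, with which Greb1 is best known to act, were too low to test, with at most 5.09 normalised counts of Esr1 and 13.2 of Esr2 in any sample. The corepressor Ncor1, with the highest mean count of the list, had a log2 fold change of 0.07 (0.887).

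None of the 16 genes in the list for Shtn1 passed the DESeq2 threshold. The list holds L1CAM, the kinases and small GTPases that act on shootin, cortactin, actin and the netrin pathway, and its median log2 fold change was 0.03. Actb and Actg1, which had the highest counts of the list, had 131924 ± 9506 against 135720.0 ± 2915 and 37398 ± 2189 against 38062 ± 4943 normalised counts (SD, n = 3 each). L1cam itself had 1658, 1126 and 1298 against 2115, 1263 and 999, with overlap of the groups (0.10; 0.951). The largest log2 fold change of the list, 0.83 for Ntn1, had an adjusted p of 0.809. Its values ran from 545 to 2827 in controls and from 1416 to 4613 in Rx-Dicer samples.

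In the list for Acpp, other acid phosphatases and enzymes and receptors of extracellular nucleotides, 1 of 17 tested genes rose and none fell, with a median log2 fold change of 0.02. That gene was Alpl, the tissue-nonspecific alkaline phosphatase, with 535, 701 and 536 normalised counts in controls and 883, 808 and 1186 in Rx-Dicer samples. The log2 fold change was 0.70 ± 0.19 (SE; DESeq2 adjusted p 0.0161). The call was lost without the first control (0.101), the third control (0.135) or the third Rx-Dicer sample (0.128). Acp2, the lysosomal acid phosphatase and the relative closest in sequence with 49.0% identity, had log2 fold change -0.03 (0.978), and Acp1, with the highest counts of the list, -0.16 (0.853). Another enzyme that makes adenosine from extracellular AMP, Nt5e, had 116, 72.3 and 40.4 against 99.5, 16.3 and 51.3, with overlap (-0.44; 0.865).

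In the list for Cd2ap, adaptors, slit diaphragm proteins and actin partners, 1 of 21 tested genes rose and none fell, with a median log2 fold change of 0.12. Podxl, the sialomucin podocalyxin, had 2431, 2394 and 1946 normalised counts in controls and 4607, 2894 and 3162 in Rx-Dicer samples (0.66 ± 0.18, SE; DESeq2 adjusted p 0.0212). The adjusted p was between 0.0516 and 0.1795 without any 1 sample other than the second Rx-Dicer sample. Without the first Rx-Dicer sample, the highest of its group, the log2 fold change was 0.42. In the other fits without 1 sample it was 0.56 to 0.79. Sh3kbp1, the paralogue of Cd2ap with 45.1% identical residues over 592 aligned, had 1092, 836 and 896 against 1015, 1023 and 1024 (0.12; 0.864). The nephrin gene Nphs1, whose product Cd2ap binds in the kidney, was not tested, with at most 4.29 normalised counts in any sample. The actin partners Capzb and Actn4, with the highest counts of the list, had log2 fold changes of -0.17 and 0.17 (0.589 and 0.629).

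**Figure D3:**
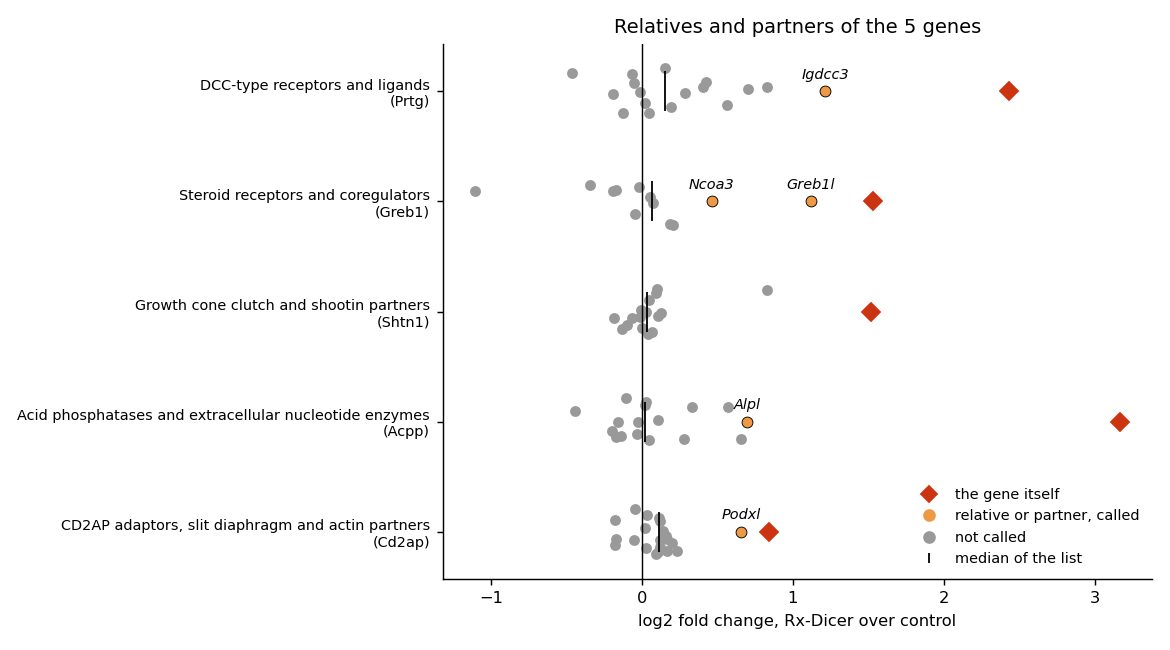
Log2 fold change (Rx-Dicer over control, horizontal axis) of the tested relatives and partners whose values are reported, by list; grey points did not pass the DESeq2 threshold, named orange points did, black ticks are the medians of all tested genes of a list and red diamonds the 5 genes. The medians lie between 0.02 and 0.15, and the named orange points between 0.46 (Ncoa3) and 1.22 (Igdcc3).

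The nearest tested protein-coding gene on each side of each member was examined to see whether a change extended along the chromosome, since position was not used to choose the members. Of the 10 neighbours 2 rose and none fell, where 2.93% of all genes tested were called and 1.75% rose. The median log2 fold change of the 10 was 0.30, and that of all genes tested was -0.00090. Vax1, a homeobox gene of the ventral forebrain and optic stalk that lies 90087 bases from Shtn1, had 176, 225 and 312 normalised counts in controls and 429, 662 and 420.2 in Rx-Dicer samples (1.08 ± 0.25, SE; DESeq2 adjusted p 0.00261). Lpin1, a phosphatidate phosphatase 59649 bases from Greb1, had 316, 249.5 and 301 against 492, 468 and 376 (0.63 ± 0.19; 0.0363). Neither pair of groups overlapped. Vax1 lost its call without the second control (0.0660) or the second Rx-Dicer sample (0.0509). Lpin1 lost it without the second control (0.228), the third control (0.0971), the first Rx-Dicer sample (0.126) or the second (0.106). Neither passed in edgeR. In that test 4 of the 10 neighbours had an unadjusted p under 0.05, as did 2313 of all 17954 genes tested.

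The genes flanking Prtg did not pass, although Pygo1 begins only 8354 bases beyond its end. Pygo1 had 3139, 2696 and 2526 normalised counts in controls and 2701, 2572 and 2582 in Rx-Dicer samples (-0.09 ± 0.13; adjusted p 0.888). Nedd4, on the other side, had a log2 fold change of 0.13 ± 0.10 (0.689). E2f6, 10077 bases from Greb1, was at -0.04 ± 0.11 (0.964), and Eno4, 1935 bases from Shtn1, at 0.86 ± 0.39 (0.2802). The neighbours of Acpp, Dnajc13 (0.31 ± 0.11; 0.128) and Cpne4 (0.79 ± 0.78; 0.799), and those of Cd2ap, Tnfrsf21 (0.30 ± 0.15; 0.388) and Ptchd4 (0.06 ± 0.34; 0.983), did not pass either.

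**Figure D4:**
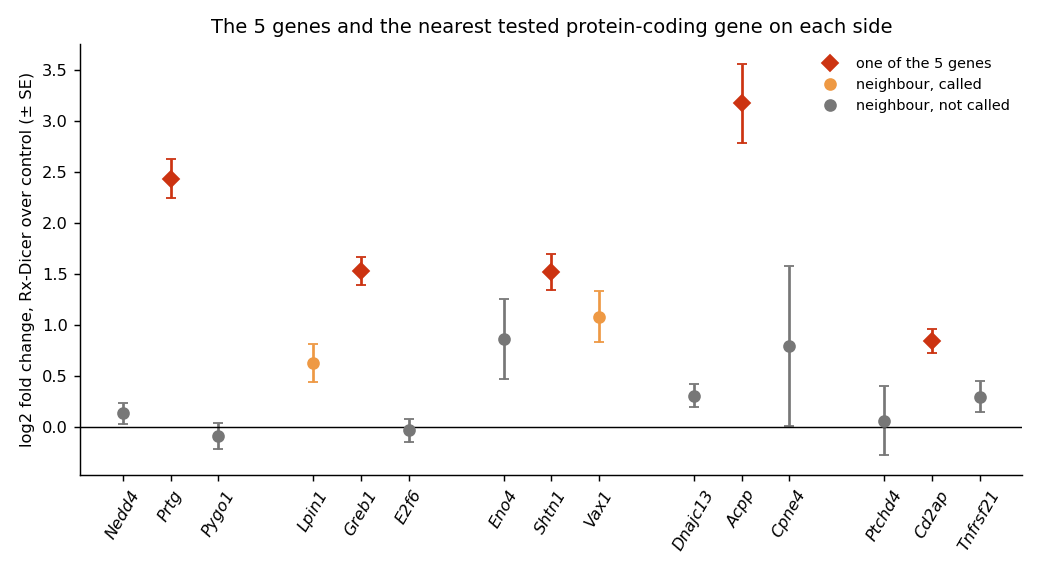
Log2 fold change with SE (Rx-Dicer over control, vertical axis) of each of the 5 genes (red diamonds) between its nearest tested protein-coding neighbours in chromosomal order; orange circles passed the DESeq2 threshold and grey circles did not. In each trio the member lies highest, and nothing is read from that because the members were chosen on this contrast. Vax1 (1.08) and Lpin1 (0.63) are the neighbours that passed.

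Markers of the cell types that the tissue could hold were read in the same libraries. Lhx2, a gene of telencephalic progenitors, had 14071 to 22363 normalised counts in all 6 samples. Of 8 telencephalic markers Six3 rose (1.27; DESeq2 adjusted p 6.27e-06) and Pax6 fell (by 0.43 on the log2 scale; 0.0127), and the summed level was 982 to 1253 CPM (counts scaled by library total) in controls and 1040.0 to 1170.1 in Rx-Dicer samples. Of 7 tested markers of hypothalamus and optic field Otp and Fezf1 rose, and the summed level of all 8 was 34.3 to 44.8 against 75.5 to 117, without overlap. The part of these in the values of the 5 genes was not tested. Of 6 markers of microglia and macrophages Csf1r and Cx3cr1 rose, with a summed level of 18.4 to 23.8 in controls, 22.6 in the second Rx-Dicer sample and up to 71.2 in the others. In the second Rx-Dicer sample Prtg was at 4.84, Greb1 at 3.05, Shtn1 at 2.27, Acpp at 8.12 and Cd2ap at 1.85 times its control mean. That describes 1 library through the values that chose the genes, and the part of microglia in them was not tested. None of the erythroid, mesenchymal and endothelial markers passed, with summed levels that overlapped between the genotypes. No marker of any list was at 0 in all 6 samples.

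Ventral markers differed between libraries within each genotype. Dlx2, a gene of ventral telencephalic progenitors, had 3044 normalised counts in the third control and 4079 in the second Rx-Dicer sample, against 717 to 1336 in the other 4 libraries. The same pair of libraries held the lowest Prtg value of each group, 463 and 3122. For Shtn1 they held the highest control value, 559, and the lowest Rx-Dicer value, 1095. Greb1 was highest of its group in both, at 501 and 1466. In the second Rx-Dicer sample Cd2ap was the highest of its group, at 2231, and Acpp the lowest, at 106. In the third control both lay between the other controls. Vax1, the neighbour of Shtn1, was highest of its group in both, at 312 and 662. Nkx2-1, of the list for hypothalamus and optic field, had 3.66, 51.9 and 192 normalised counts in controls. In Rx-Dicer samples it had 682, 1882 and 1307, without overlap (log2 fold change 3.97 ± 1.26, SE). It did not pass the threshold (DESeq2 adjusted p 0.0549). The part of these differences in the values and the spread of the 5 genes was not tested.

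The estimates were recomputed under 19 alternatives for each gene except Acpp, for which 1 of them gave no adjusted p. The log2 fold change stayed between 2.24 and 2.67 for Prtg, 1.48 and 1.60 for Greb1, 1.43 and 1.66 for Shtn1, 2.96 and 3.32 for Acpp, and 0.80 and 0.88 for Cd2ap. The widest range in absolute terms was that of Prtg, whose controls were the most spread. Leaving out 1 sample under edgeR left between 0 and 4 of the 5 genes past the adjusted threshold.

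**Figure D5:**
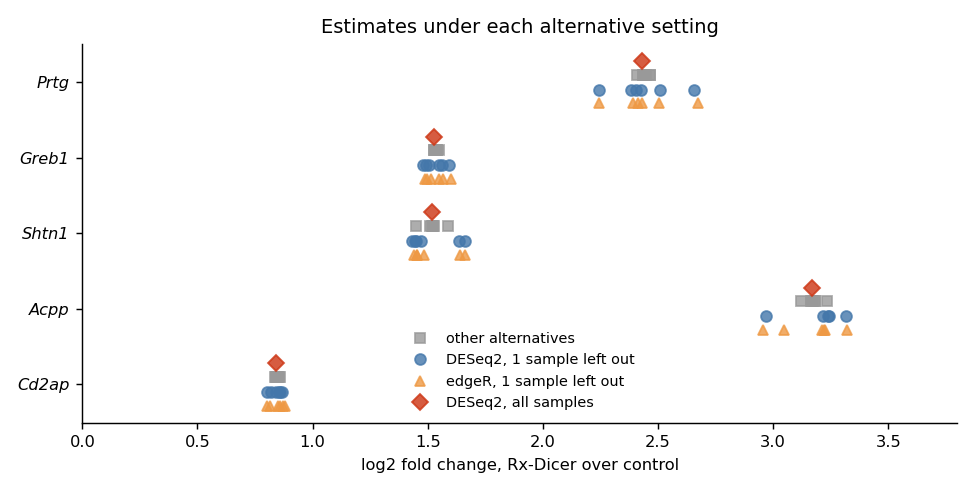
Log2 fold change (Rx-Dicer over control, horizontal axis) of the 5 genes with all samples under DESeq2 (diamonds), with 1 sample left out under DESeq2 (circles) or edgeR (triangles), and under the other alternatives (squares). The estimates of a gene lie together, from 0.80 to 0.88 for Cd2ap and from 2.96 to 3.32 for Acpp.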

How the data were processed

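RNA-seq of 3 control and 3 Rx-Dicer samples (paired reads of 100 bp, directional libraries) was analysed from raw read counts per gene as deposited by the authors, in 2 files per sample. According to the methods and processing notes of the study, the authors trimmed reads with Trim Galore 0.6.5, aligned them to GRCm38.p6 with HISAT2, and counted them with HTSeq 0.12.4 in union mode on the reverse strand over Ensembl genes. Reads not assigned to a gene (24.9% to 31.0% of those tallied) stayed out of library sizes and tests. The 2 files of a sample differed by a chi-square per degree of freedom of 1.11 to 1.47, against 20.5 to 29.6 between first files of samples of a group, and were summed as repeat runs (n = 3).

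Counts were scaled by DESeq2 size factors and compared with the DESeq2 1.42.0 Wald test, the tool of the study, with Benjamini-Hochberg adjustment over all genes, and genes past 1.25-fold with an adjusted p under 0.05 were called. Alternatives were edgeR 4.0.16 quasi-likelihood (TMM, at least 10 counts in at least 3 samples), TMM or total-count scaling, that filter, each file alone, the replicate number as a block, each sample left out, a limit of 2-fold, and an adjusted p under 0.1. The edgeR fits without each sample were added after seeing the data. Both tests were tested on simulated data. The floor of a library, 3 counts, was 0.0620 to 0.0870 CPM, which covers counting error only.

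Positions, lengths and 3′ UTRs came from GENCODE M21 on the same assembly, which held 55230 of 55471 identifiers. Protein identity came from global alignment of the longest translated coding sequences. Members and gene lists were chosen with earlier results of these data known. Genes named were the members, Dicer1, their tested protein-coding neighbours, called listed genes and those of highest mean count, the 2 most similar genes per member, and those nearest the edgeR threshold; Lin28a, Tnrc6a, Bcl2l11, L1cam, Nt5e, Ntn1, Igdcc4, Neo1, Acp2, Sh3kbp1, untested receptor and nephrin genes, genes that overlap or share sequence with members, and markers were named in addition after their values were seen. The correlation of deviations between samples of the same replicate number was 0.27, -0.065 and -0.29 over 12896 genes, so the numbers do not pair the samples. The values of some listed genes are not reported here, and these genes stay in the counts and medians.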

Additional observations from a re-analysis of the deposited data

How the results depend on the processing

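All 5 genes kept their direction under every alternative run, and their calls under every DESeq2 alternative that gave an adjusted p, except that Cd2ap was not called at over 2-fold, which left 4 of the 5. For Acpp DESeq2 gave none without the third Rx-Dicer sample (log2 fold change 3.05). Over the fits without 1 sample, under DESeq2 or edgeR, the log2 fold change ran from 2.24 to 2.67 for Prtg, 1.48 to 1.60 for Greb1, 1.43 to 1.66 for Shtn1, 2.96 to 3.32 for Acpp and 0.80 to 0.88 for Cd2ap. Under edgeR the adjusted p passed in 3 of those 6 fits for Prtg, 3 for Greb1, 1 for Shtn1, 2 for Acpp and 1 for Cd2ap. Without the second control or the first or the third Rx-Dicer sample edgeR called none of the 5, and all 5 had an unadjusted p under 0.05. The 5 genes were chosen on this contrast, so these calls and p-values describe them and are no test of them. The count of genes called, 502 with all samples, ran from 286 to 637 over the DESeq2 fits without 1 sample (286 without the second control, 309 without the third Rx-Dicer sample), and was 8 under edgeR, 122 at over 2-fold and 0 to 19 under edgeR without 1 sample. In the edgeR fits with 0 calls, 1570.0 to 2366 genes had an unadjusted p under 0.05. Partner genes called, 6 with all samples, were 0 under edgeR, 3 at over 2-fold, 2 to 7 without 1 sample, and 0 to 1 under edgeR without 1 sample. Neighbouring genes called, 2 with all samples, were 0 under edgeR, 1 with either file alone, 1 at over 2-fold, 0 to 2 without 1 sample and 0 under edgeR without 1 sample. The causes were not tested. With the replicate number as a block, 314 genes, 3 partners, 1 neighbour and all 5 members were called. Whether the numbers pair the samples cannot be told. Counts of 9 to 15 reads limit the control level of Acpp.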
